A study of Mus musculus with 6 samples.

Results

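The Dlk1-Dio3 region is an imprinted stretch of mouse chromosome 12. It is represented here by 9 genes: the protein-coding genes Dlk1, Rtl1 and Dio3, the long noncoding RNA genes Meg3, Rian and Mirg, and the flanking genes Begain, Wdr25 and Ppp2r5c. They were found by exact symbol, and all 9 were present among the 22558 gene names of each table. Messenger RNA was sequenced from 6 mouse pluripotent cultures, 1 library each, and deposited as 3 tables of 2 libraries. The first table holds a 4N- and a 4N+ line of induced pluripotent stem cells (iPSC) made from peritoneal fibroblasts (PF), and the second a 4N- and a 4N+ line made from tail tip fibroblasts (TTF). These 4 lines are of 129Sv/C57 mix background, and each label is represented by 1 line per parental cell type. Their names carry the prefix H2A.X, but no H2A.X genotype is given for them. The third table holds embryonic stem cells (ESC) of 129Sv background, labelled H2A.X Cre KO or Flox/Flox, in which H2A.X is deleted by Cre recombinase or is only flanked by recombination sites. All 6 cultures were at passage 25. They had been grown with LIF on feeder cells, and were moved to gelatin shortly before lysis to leave the feeders behind. The reading of 4N as tetraploid complementation, the making of an embryo from the tested cells inside a tetraploid host, is knowledge from outside the labels.

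In an imprinted region the maternal and paternal chromosomes are used differently. In the mouse, Meg3, Rian and Mirg are transcribed from the maternal chromosome and contain long arrays of small nucleolar RNAs and microRNAs, whereas Dlk1, Rtl1 and Dio3 are expressed mainly from the paternal one. A differentially methylated region between Dlk1 and Meg3, methylated on the paternal chromosome, controls the choice. The region is known in mouse iPSC because some lines lose the maternal RNAs, and such lines have been reported to support tetraploid embryos poorly. DNA methylation and parental origin were not measured in these libraries.

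The stretches around the annotated starts of the 3 noncoding RNAs are printed because these RNAs moved together. They run from 250 bases before to 50 bases after the annotated start and come from RefSeq on build GRCm38.p6, plus strand: chr12:109540746-109541045 for Meg3, chr12:109603695-109603994 for Rian and chr12:109734731-109735030 for Mirg. Capitals mark the hits of 3 letter strings, which were searched for on both strands. The first is TGACGTCA, the cAMP response element. The next is TGCCGC, the hexamer that the imprint-protecting factor Zfp57 binds when it is methylated. The last is TATATAA, a form of the TATA box found shortly before some starts.
Meg3 promoter: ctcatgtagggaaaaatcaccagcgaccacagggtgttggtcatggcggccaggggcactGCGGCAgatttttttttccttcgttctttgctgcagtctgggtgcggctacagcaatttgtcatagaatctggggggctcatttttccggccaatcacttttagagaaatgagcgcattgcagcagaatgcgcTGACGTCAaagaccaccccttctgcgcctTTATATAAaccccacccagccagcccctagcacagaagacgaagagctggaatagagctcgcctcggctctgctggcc
Rian promoter: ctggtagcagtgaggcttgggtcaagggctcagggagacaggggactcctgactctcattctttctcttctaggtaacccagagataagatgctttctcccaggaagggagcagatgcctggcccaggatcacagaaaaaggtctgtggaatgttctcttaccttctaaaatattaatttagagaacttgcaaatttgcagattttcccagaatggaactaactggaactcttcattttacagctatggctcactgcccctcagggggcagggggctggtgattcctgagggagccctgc
Mirg promoter: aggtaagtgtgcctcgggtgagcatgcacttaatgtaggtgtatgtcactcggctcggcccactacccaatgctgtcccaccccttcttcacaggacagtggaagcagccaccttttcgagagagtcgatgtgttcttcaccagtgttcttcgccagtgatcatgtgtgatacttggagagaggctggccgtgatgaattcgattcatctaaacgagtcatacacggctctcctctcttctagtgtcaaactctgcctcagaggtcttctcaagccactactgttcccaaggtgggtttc
Only the first of these windows held any of the strings. The Zfp57 hexamer lies there as its reverse complement and begins at position -190 from the start. The cAMP response element begins at -57. The capitals closest to the start hold 2 overlapping hits of the TATA box string, 1 on each strand. Of 32544 mouse promoter windows of the same length, 1.8% held the cAMP response element, 11.7% the Zfp57 hexamer and 3.22% the TATA box string. The Meg3 window contained 13 CG dinucleotides, the Rian window 0 and the Mirg window 10, against a median of 7 over all windows. RefSeq lists a further Meg3 start, whose window held 1 CG and none of the strings. A letter match is a description of the sequence and not a measured binding site. The Mirg window also contains the mature microRNAs miR-668-5p, miR-668-3p and miR-485-3p of the region. Whether each window acts as a promoter of its own was not tested. Among the other members a window was found for Dlk1 (9 CG), Dio3 (25 CG), Ppp2r5c and Begain; Rtl1 and Wdr25 had none.

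Depth and label checks set the frame for the values. Effective depth, recovered from intronless receptor genes, lay between 38100000 and 59600000 fragments. At that depth 1 FPKM, the unit of the tables (fragments scaled to transcript length and library size), equals 69.1 to 108.2 fragments where a transcript is 2000 bp long. The H2A.X gene itself, H2afx, was at 6.18 FPKM in H2A.X KO ESC and at 34.9 FPKM in Flox/Flox ESC. In the 4 iPSC lines it lay between 65.3 and 75.2 FPKM. Of 18 pluripotency markers 17 reached 1 FPKM in every library. Each condition is a single library in its table, so ratios inside a table have no replicate check. Genes that reached 5 FPKM in both libraries of a pair had a median log2 ratio of -0.17 in the PF pair, 0.01 in the TTF pair and -0.20 in the ESC pair.

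The maternally expressed noncoding RNAs fell in the 4N- lines. In both iPSC pairs Meg3, Rian and Mirg stood far below their 4N+ level. Of the 9 members 5 were measured, that is at 1 FPKM or more in at least 1 library of a pair, and these 3 were lower by 2-fold or more in the 4N- line of each pair, while 0 members were higher by as much. Among all measured genes, 0.974% were that much lower and 0.577% that much higher in the PF 4N- line. In the TTF 4N- line the shares were 0.564% and 0.185%. In the PF pair all 3 reached 1 FPKM only in the 4N+ line, as Mirg did in the TTF pair, so the filter fixed their direction there.

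Meg3 is a long noncoding RNA gene that marks activity of the maternal chromosome (mm9 chromosome 12, 110779206 to 110809939). It stood at 0.188 FPKM in the PF 4N- line against 44.1 FPKM in the PF 4N+ line, and at 1.52 FPKM in the TTF 4N- line against 28.0 FPKM in the TTF 4N+ line. In each pair the 4N+ line was the higher. The log2 ratio of 4N- over 4N+ on the log2(FPKM + 1) scale was -5.25 in the PF pair and -3.52 in the TTF pair (SD 1.22, n = 2 pairs). Rian, which hosts box C/D small nucleolar RNAs, lies downstream (110842155 to 110899921). Its values were 0.200 FPKM (PF 4N-) against 58.1 FPKM (PF 4N+), and 2.31 FPKM (TTF 4N-) against 39.5 FPKM (TTF 4N+). The log2 ratios of Rian were -5.62 (PF) and -3.61 (TTF), with an SD of 1.42 over the 2 pairs. Mirg, the host of a large microRNA cluster (110973191 to 110987667), was lower per length than Meg3 and Rian in every library. It stood at 0.0411 FPKM in the PF 4N- line against 8.64 FPKM in the PF 4N+ line, and at 0.493 FPKM in the TTF 4N- line against 8.51 FPKM in the TTF 4N+ line. Its log2 ratios were -3.21 (PF) and -2.67 (TTF), with an SD of 0.38 over the 2 pairs.

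**Figure D1:**
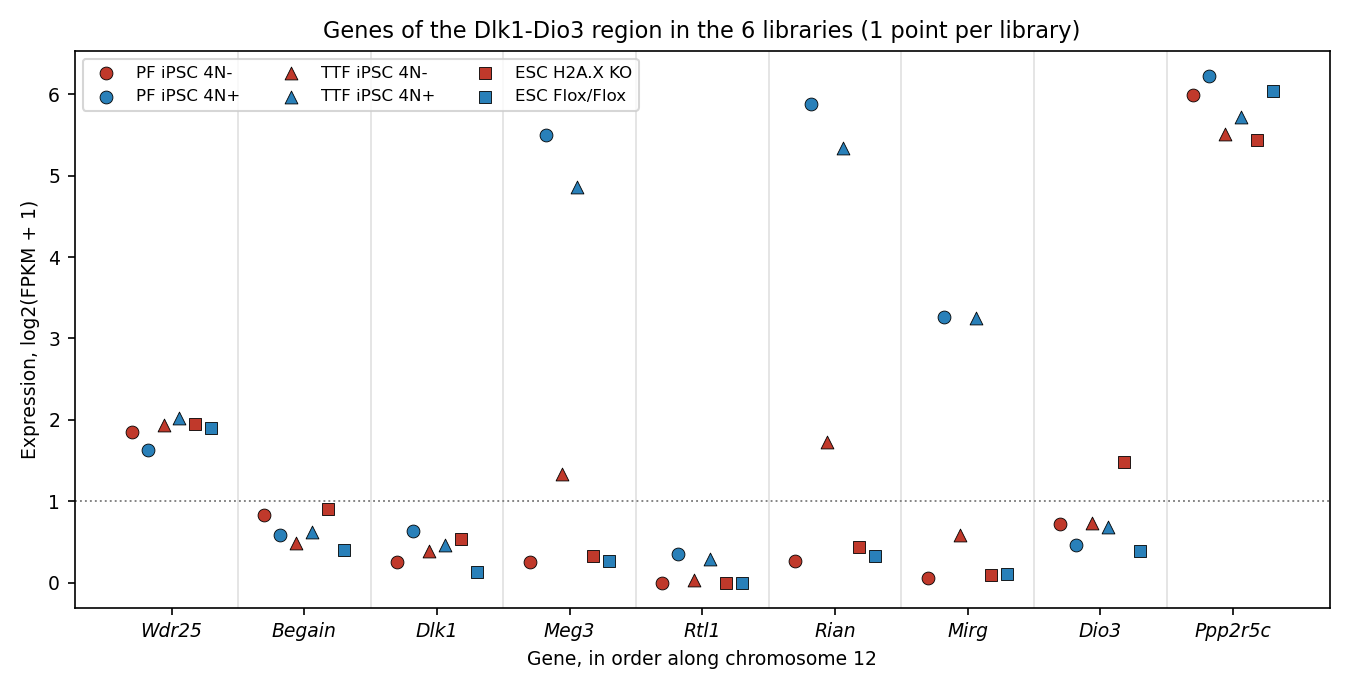
Level of the 9 genes in each of the 6 libraries, as log2(FPKM + 1), with genes in their order along chromosome 12; each symbol is 1 library and the dotted line is 1 FPKM. Meg3, Rian and Mirg stand high only in the 2 4N+ iPSC lines, while Wdr25 and Ppp2r5c are above 1 FPKM in all libraries.

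The fit over both pairs called these 3 genes and no other member. With limma, parental cells as a block and Benjamini-Hochberg adjustment over 11985 genes, the log2 ratio was -4.39 ± 0.30 for Meg3 (SE, adjusted p = 4.4e-05), -4.62 ± 0.34 for Rian (adjusted p = 7.7e-05) and -2.94 ± 0.17 for Mirg (adjusted p = 1.3e-05). Each was lower in 2 of 2 pairs. Mirg was under 1 FPKM in both 4N- lines and entered the fit only through the 4N+ lines. Its direction in the fit is therefore not independent of the filter. The fit called 0.0751% of genes lower (9 genes) and 0.0417% higher (5 genes), of which 7 carry microRNA or small nucleolar RNA names and Scarna8 is a further small RNA gene. By p the members ranked 5 (Mirg), 7 (Meg3) and 9 (Rian). The fit has 1 residual degree of freedom per gene and borrows its spread from other genes. For Meg3, Rian and Mirg its standard errors lay below the SD of the 2 pair ratios (1.22, 1.42 and 0.38). The SE refers to the mean of the pairs and the SD to single pairs, so they are unlike measures. Without the replicate block, adjusted p was 0.142 for Meg3, 0.208 for Rian and 0.142 for Mirg, and with no filter on low values it was 0.978, 0.978 and 0.536 for the same genes. With either 4N+ line left out (and no block) none of the 3 was called, and without the PF 4N- line Mirg was not (limma adjusted p = 0.0969). Wdr25 had a log2 ratio of 0.06 ± 0.16 (SE, limma adjusted p = 0.999) and Ppp2r5c one of -0.22 ± 0.20 (SE, limma adjusted p = 0.999). The remaining 4 members were under 1 FPKM in all iPSC lines and were not tested.

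Within a pair the 3 RNAs differed by nearly the same proportion. In the PF 4N- line, Meg3 kept 0.426% of its level in the 4N+ line, Rian 0.345% and Mirg 0.476%. In the TTF 4N- line the shares were 5.44% for Meg3, 5.84% for Rian and 5.79% for Mirg. The TTF 4N- line thus stood closer to its 4N+ partner in each of the 3 RNAs. With 1 line per label and parental cell type, the difference between the pairs was not tested. The log2 ratios depend on the pseudocount: with 0.1 in place of 1 they were -7.26 (PF) and -4.11 (TTF) for Meg3, -7.60 (PF) and -4.04 (TTF) for Rian, and -5.95 (PF) and -3.86 (TTF) for Mirg. On a 2000 bp transcript the PF 4N- value of Mirg would stand for 3.22 fragments, and those of Meg3 and Rian for 14.7 and 15.7 fragments. The PF shares therefore rest on few fragments, while Meg3 in the TTF 4N- line would stand for 164.9.

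Their proportions to each other changed less than their levels. Per unit of length, the Rian level was 1.07 times that of Meg3 in the PF 4N- line and 1.32 times in the PF 4N+ line. In the TTF pair it was 1.52 times (4N-) and 1.41 times (4N+), and in ESC 1.39 times (KO) and 1.23 times (Flox/Flox). The ratio of the Mirg level to the Meg3 level ran from 0.196 in the PF 4N+ line to 0.362 in Flox/Flox ESC. Summed, the 3 RNAs reached 0.429 FPKM in the PF 4N- line, 110.8 FPKM in the PF 4N+ line, 4.33 FPKM in the TTF 4N- line and 76.1 FPKM in the TTF 4N+ line. Sums across tables carry the limit that the tables were probably scaled separately.

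No other gene outside the small RNA class met the same criterion. Of 10859 such genes measured in each iPSC pair, Meg3, Rian and Mirg were lower by 2-fold or more in the 4N- line of both pairs, and no others were. The same 3 were returned after median centring, and with a pseudocount of 0.1 2610037D02Rik joined them. They also remained at a minimum of 5 FPKM (7125 genes), which can only remove genes. Dropping the filter on low values (17369 genes) could add none, as a gene under 1 FPKM in both libraries cannot pass 2-fold on this scale. Rtl1 and 6430411K18Rik, described below, were therefore not counted. Their FPKM in the 4N- line was 0% of the 4N+ level in the PF pair for both genes. In the TTF pair it was 11.3% for Rtl1 and 9.79% for 6430411K18Rik. In the opposite direction Rangrf was higher by 2-fold or more in the 4N- line of both pairs, as was Scarna8, a small Cajal body RNA gene that the name pattern for small RNA genes does not cover.

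**Figure D2:**
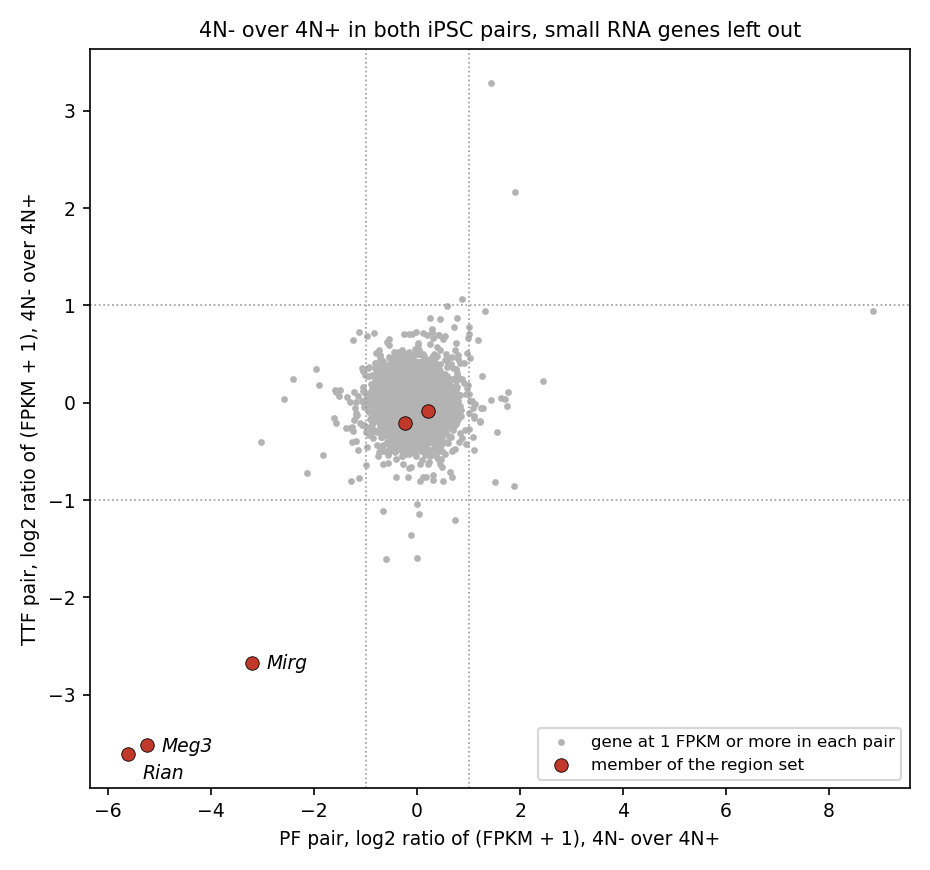
Log2 ratio of 4N- over 4N+ on the log2(FPKM + 1) scale in the PF pair (x axis) and in the TTF pair (y axis), 1 point per gene measured in each pair, without small RNA genes; dotted lines mark 2-fold. Meg3, Rian and Mirg (-5.25, -5.62 and -3.21 in the PF pair) are alone beyond 2-fold in the lower left, and Wdr25 and Ppp2r5c lie in the central cloud.

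A few small RNA genes located among the noncoding transcripts were listed above 0 in the 4N+ lines, and all were at 0 in every other library. Between the start of Meg3 and the end of Mirg the tables list 59 small RNA genes. Above 0 were 0 of them in the PF 4N- line and 4 in the PF 4N+ line, and 0 in the TTF 4N- line and 5 in the TTF 4N+ line. Both ESC libraries had 0. The shares in the 4N+ lines were 6.78% (PF) and 8.47% (TTF), against 17.7% to 21.4% of the 654 small RNA genes elsewhere in the 4 iPSC libraries. Libraries made from mRNA do not measure mature microRNAs, and FPKM on such short features rests on very few fragments.

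Of the 59 genes 8 were above 0 in any library, and Mir1193 alone was above 0 in both 4N+ lines. It was listed at 0 in both 4N- lines, at 5.45 FPKM in the PF 4N+ line and at 4.09 FPKM in the TTF 4N+ line. In the PF 4N+ line the others were the small nucleolar RNA gene AF357355 (907 FPKM), Mir1188 (22.6 FPKM) and Mir3070a (21.3 FPKM). In the TTF 4N+ line they were Mir409 (59.2 FPKM), Mir134 (55.5 FPKM), Mir3070b (32.0 FPKM) and Mir654 (21.4 FPKM). AF357355 and Mir1188 carry the same interval as Rian in the tables, and Mir409 the same interval as Mirg, so their fragments cannot be told apart from those of the host RNA. The others lie between the listed intervals of Meg3, Rian and Mirg.

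The mature forms encoded by these genes are shown for the seeds they carry, since bases 2 to 8 choose a microRNA's targets. Of the 59 names, 54 matched RefSeq (GRCm38.p6) and gave 100 mature sequences with 93 different seeds. Sharing was rare, as 7 seeds accounted for 14 of the mature forms. Capitals mark the seed.
mmu-miR-1193-5p: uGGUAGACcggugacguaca
mmu-miR-379-5p: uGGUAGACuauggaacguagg
mmu-miR-1193-3p: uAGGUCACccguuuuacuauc
mmu-miR-370-5p: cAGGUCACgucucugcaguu
mmu-miR-3070-3p: uGGUGCUAccgucagggguaga
mmu-miR-3070-2-3p: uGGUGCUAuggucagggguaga
mmu-miR-1188-5p: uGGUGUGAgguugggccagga
mmu-miR-134-5p: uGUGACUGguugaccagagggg
mmu-miR-409-3p: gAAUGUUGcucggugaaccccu
mmu-miR-654-3p: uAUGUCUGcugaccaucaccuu
The detected Mir1193 carries the seed GGUAGAC in its 5p arm, which miR-379-5p shares, and AGGUCAC in its 3p arm, which miR-370-5p shares. The miR-3070 forms from neighbouring hairpins share GGUGCUA. Mature levels of these microRNAs were not measured.

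The paternally expressed coding genes were low. All were under 1 FPKM in the 4 iPSC lines, and Dio3 alone exceeded it in ESC. Dlk1 encodes a transmembrane protein of the Notch ligand family that restrains fat cell differentiation (110691033 to 110701546). Its level was 0.193 FPKM in the PF 4N- line against 0.544 FPKM in the PF 4N+ line, and 0.304 FPKM in the TTF 4N- line against 0.374 FPKM in the TTF 4N+ line. In ESC it was 0.452 FPKM (KO) against 0.0970 FPKM (Flox/Flox). The 4N- line was the lower in each iPSC pair, with log2 ratios of -0.37 (PF) and -0.08 (TTF), whereas the KO was the higher in ESC (0.40). In no table did Dlk1 reach 1 FPKM, so none of these ratios could pass 2-fold on the log2(FPKM + 1) scale. By FPKM alone, the 4N- level was 35.5% (PF) and 81.3% (TTF) of the 4N+ level. The KO level was 4.66 times that of Flox/Flox ESC, whose value would stand for 8.53 fragments on a 2000 bp transcript.

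Rtl1, a retrotransposon-derived gene needed in the placenta, sits between Meg3 and Rian (110828379 to 110833613). It was listed at 0 in the PF 4N- line and at 0.270 FPKM in the PF 4N+ line. In the TTF pair it was 0.0252 FPKM (4N-) and 0.223 FPKM (4N+), a share of 11.3%. Both ESC libraries were listed at 0. The level was thus the higher in the 4N+ line of each pair. At the same interval the tables list 6430411K18Rik, an antisense RNA whose RefSeq synonym is PEG11as and which is expressed from the maternal chromosome in the mouse. It was listed at 0 in the PF 4N- line and 0.884 FPKM in the PF 4N+ line, and at 0.0625 FPKM in the TTF 4N- line and 0.639 FPKM in the TTF 4N+ line. Strand use is not stated, so fragments of Rtl1 and of its antisense partner cannot be told apart.

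Dio3 encodes the deiodinase that inactivates thyroid hormone (111517440 to 111519307). It stood at 0.650 FPKM in the PF 4N- line against 0.379 FPKM in the PF 4N+ line, and at 0.658 FPKM in the TTF 4N- line against 0.610 FPKM in the TTF 4N+ line. Neither 4N- line was below its partner, unlike for Meg3. The H2A.X KO ESC had the highest level of all libraries, 1.80 FPKM against 0.313 FPKM in Flox/Flox ESC. As Dio3 has no intron (1868 bp in the table), its values convert to estimated fragments, rounded here to 115 in the KO and 26 in Flox/Flox ESC. The ratio of the FPKM values was 5.74, and an exact conditional binomial 95% interval from the rounded fragments ran from 3.65 to 8.98. The PF pair had about 47 (4N-) and 28 (4N+) fragments and an FPKM ratio of 1.71 (interval 1.03 to 2.79). The TTF pair had about 66 (4N-) and 59 (4N+) and an FPKM ratio of 1.08 (interval 0.751 to 1.57). These intervals cover counting error only and compare libraries, not conditions. Dio3os, an antisense RNA gene beside it that does not overlap it in the tables, was at 0.572 FPKM in the KO and 0.187 FPKM in Flox/Flox ESC.

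Of the flanking genes, Wdr25 and Ppp2r5c were expressed in every culture and Begain stayed under 1 FPKM. Begain, which encodes a synaptic scaffold protein (110270392 to 110306427), stood at 0.772 FPKM (PF 4N-) against 0.494 FPKM (PF 4N+), at 0.398 FPKM (TTF 4N-) against 0.539 FPKM (TTF 4N+), and at 0.878 FPKM (KO) against 0.320 FPKM (Flox/Flox). The 4N- line was the higher in the PF pair and the lower in the TTF pair. Wdr25, a gene for a WD-repeat protein (110132482 to 110266662), stood at 2.59 FPKM (PF 4N-) against 2.10 FPKM (PF 4N+), at 2.83 FPKM (TTF 4N-) against 3.07 FPKM (TTF 4N+), and at 2.87 FPKM (KO) against 2.73 FPKM (Flox/Flox). The highest and lowest library differed 1.46-fold, the narrowest range of the 9 genes. Ppp2r5c encodes a regulatory subunit of protein phosphatase 2A and was the most highly expressed member per length (111685389 to 111821271). It stood at 62.9 FPKM (PF 4N-) against 73.8 FPKM (PF 4N+), at 44.5 FPKM (TTF 4N-) against 51.6 FPKM (TTF 4N+), and at 42.2 FPKM (KO) against 65.1 FPKM (Flox/Flox). Its log2 ratios of -0.23, -0.21 and -0.61 were all negative and all within 2-fold.

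Genes around the noncoding cluster did not pass 2-fold between the iPSC labels. Among 35 other genes within 1 Mb of the outermost members, small RNA genes aside, 20 were measured in each iPSC pair and 0 were 2-fold lower or higher in the 4N- line. Their log2 ratios ran from -0.40 to 0.39 in the PF pair (median -0.19) and from -0.28 to 0.14 in the TTF pair (median -0.01). The medians over all measured genes were -0.13 (PF) and 0.00 (TTF). Wars, a tRNA synthetase gene upstream, stood at 31.3 FPKM (PF 4N-) against 35.4 FPKM (PF 4N+) and at 34.9 FPKM (TTF 4N-) against 32.6 FPKM (TTF 4N+). Dync1h1, the dynein heavy chain gene beyond Ppp2r5c, stood at 35.2 FPKM (PF 4N-) against 33.6 FPKM (PF 4N+) and at 22.1 FPKM (TTF 4N-) against 24.6 FPKM (TTF 4N+). Over the rest of chromosome 12, small RNA genes aside, 1 of 402 measured genes was 2-fold lower in the PF 4N- line (Dnmt3a). In the TTF 4N- line 0 of 397 were. A different gene in each pair was 2-fold higher in the 4N- line. In the TTF pair it was Psma3, a proteasome subunit gene (log2 ratio 1.06, against 0.86 in the PF pair). Among these genes the limma fit over both pairs called Psma3 alone (log2 ratio 0.96, adjusted p = 0.0468). The fit also called Mir1193, a small RNA gene between Rian and Mirg (log2 ratio -2.52, limma adjusted p = 4.4e-05).

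**Figure D3:**
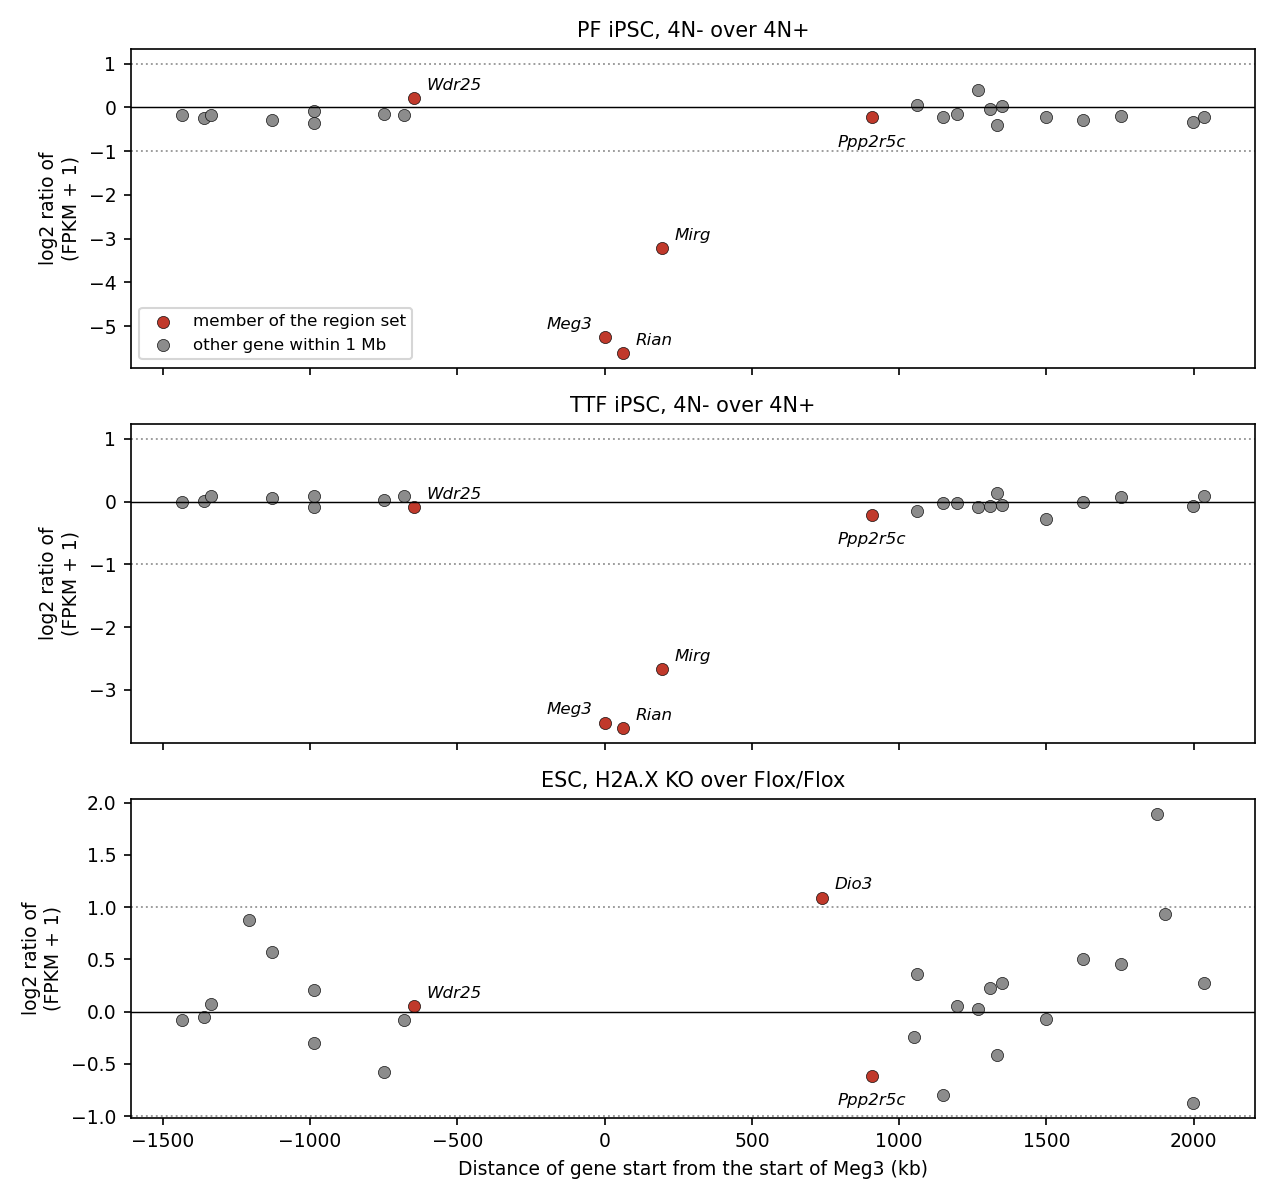
Log2 ratio on the log2(FPKM + 1) scale against the distance of each gene's start from that of Meg3 in kilobases, in the 3 pairs from top to bottom; red points are members, grey points other measured genes within 1 Mb, and dotted lines mark 2-fold. In both iPSC pairs Meg3, Rian and Mirg drop below the line while their neighbours stay between -0.40 and 0.39, and in the ESC pair Dio3 lies above it at 1.09.

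In the H2A.X KO ESC, Dio3 was the member that passed 2-fold, and the noncoding RNAs were near the detection limit in both libraries. Of 3 measured members, 1 (Dio3, log2 ratio 1.09) was higher by 2-fold or more in the KO and 0 were lower by as much. Of all measured genes, 7.49% were that much higher and 3.72% that much lower, so Dio3 moved in a direction many genes shared. Dio3 passed the 1 FPKM filter only through the KO. Meg3 stood at 0.251 FPKM in the KO and 0.202 FPKM in Flox/Flox ESC, Rian at 0.349 FPKM (KO) and 0.250 FPKM (Flox/Flox), and Mirg at 0.0701 FPKM (KO) and 0.0733 FPKM (Flox/Flox). These levels lay close to those of the PF 4N- line, and Meg3 would stand for 17.3 (KO) and 17.8 (Flox/Flox) fragments on a 2000 bp transcript. With both libraries this low, a further fall in the KO could hardly be detected at this depth. Within 1 Mb the gene 1200009I06Rik was 2-fold higher in the KO (3.07 FPKM against 0.0959 FPKM), and the others of 24 measured neighbours were within 2-fold.

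Trophoblast and endoderm markers moved in the same pair. Their summed level over 19 genes was 1220 FPKM in the KO and 59.2 FPKM in Flox/Flox ESC. In the KO 9 of 12 measured were at least 2-fold higher, against 7.49% of all measured genes. Pluripotency markers summed to 1654 FPKM in the KO and 3062 FPKM in Flox/Flox ESC. Their part in the Dio3 value was not tested. In bulk samples fewer cells of a type and less RNA per cell cannot be told apart.

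The authors' deposited tables carry their own calls, made between the 2 libraries of a pair. For the PF pair the authors' deposited table called 75 genes, among them Meg3, Rian and Mirg (q = 1.41e-06 for Mirg). In the TTF pair the authors' deposited table called 43 genes, which include the same 3 and Rtl1 (q = 0.00101). For ESC the authors' deposited table called 210 genes and 0 members, with q = 0.245 for Dio3 and q = 0.497 for Dlk1. Such q-values compare 2 libraries and not the conditions.

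No listed imprinted gene elsewhere passed 2-fold in both pairs. Of 49 listed imprinted genes outside the region, 34 were measured in the PF pair. In the 4N- line 2 of these were at least 2-fold higher and 3 lower (median -0.11). Over all measured genes of that pair, 0.577% were 2-fold higher and 0.974% lower (median -0.13). In the TTF pair 33 of the listed genes were measured and 0 passed 2-fold in either direction (median 0.03, against 0.00 over all measured genes). The limma fit over both pairs called 0 of 34, at an adjusted p below 0.05. In the PF pair Slc38a4, an amino acid transporter gene, stood at 34.8 FPKM (4N-) against 101 FPKM (4N+), and the chromatin factor gene Sfmbt2 at 1.31 FPKM (4N-) against 4.00 FPKM (4N+). Nespas, an antisense RNA of the Gnas locus, stood at 0.292 FPKM (4N-) against 1.90 FPKM (4N+). Higher in the 4N- line were Nnat (7.94 against 1.44 FPKM) and the growth regulator gene Grb10 (25.2 against 8.22 FPKM). Of all measured genes in ESC, 7.49% were 2-fold higher and 3.72% lower in the KO (median -0.03). Of the listed imprinted genes, 9 of 36 measured were higher by 2-fold or more in the KO and 0 lower (median 0.29). Among them the growth factor gene Igf2 was at 426 FPKM in the KO against 14.7 FPKM in Flox/Flox ESC, and the noncoding RNA gene H19 at 13.9 FPKM in the KO against 1.44 FPKM in Flox/Flox ESC.

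Genes that maintain imprints or regulate the region were mostly level in the iPSC. Of 23 listed, 22 were in the tables and measured in the PF pair, where 0 were 2-fold higher and 1 lower in the 4N- line. That gene was the de novo DNA methyltransferase gene Dnmt3a, at 11.4 FPKM (4N-) against 23.9 FPKM (4N+). In the TTF pair it ran the other way, at 26.1 FPKM (4N-) against 21.1 FPKM (4N+), and 0 of 21 measured passed 2-fold. Zfp57, whose protein protects imprints and which was singled out after its values were seen, stood at 211 FPKM (4N-) against 109 FPKM (4N+) in the PF pair and at 208 FPKM (4N-) against 195 FPKM (4N+) in the TTF pair. The limma fit over both pairs called 0 of 22, at an adjusted p below 0.05. In ESC 4 of 22 measured were at least 2-fold lower in the KO and 0 higher. They were Tet1 (21.5 against 82.1 FPKM), Jarid2 (31.5 against 84.8 FPKM), Dnmt3a (13.3 against 35.8 FPKM) and Dnmt3b (36.0 against 89.4 FPKM). Of all measured genes in ESC, 3.72% were 2-fold lower and 7.49% higher in the KO.

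Fibroblast and feeder markers were lower in the PF 4N- line, where 7 of 15 measured passed 2-fold (median log2 ratio -0.58). Over all measured genes 0.974% were 2-fold lower there, with a median log2 ratio of -0.13. Of 20 listed, 6 reached 1 FPKM in the PF 4N- line and 15 in the PF 4N+ line, with sums of 131 FPKM (4N-) and 258 FPKM (4N+). The collagen gene Col1a2 stood at 0.0228 FPKM (PF 4N-) against 5.41 FPKM (PF 4N+), and S100a4 at 0.153 FPKM (PF 4N-) against 40.1 FPKM (PF 4N+). In the TTF pair 0 of 5 measured passed 2-fold, and 5 reached 1 FPKM in each line, with sums of 139 FPKM (4N-) and 168 FPKM (4N+), and Lum was at 0 in all 6 libraries. Col1a2 stood at 0.146 FPKM (TTF 4N-) and 0.0856 FPKM (TTF 4N+), and Col1a1 at 0.218 FPKM (TTF 4N-) and 0.188 FPKM (TTF 4N+). The part of these markers in the result was not tested.

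**Figure D4:**
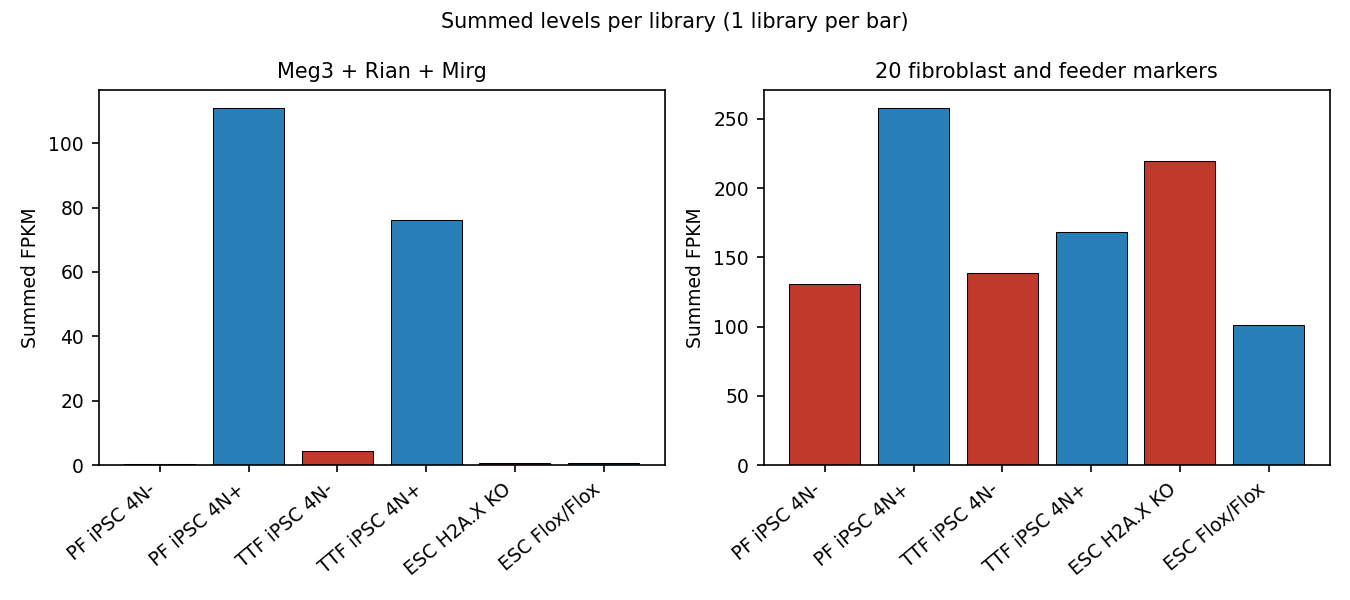
Summed FPKM of Meg3, Rian and Mirg (left) and of 20 fibroblast and feeder markers (right) in each library, 1 library per bar, red for 4N- or KO and blue for 4N+ or Flox/Flox. The noncoding sum is 110.8 and 76.1 FPKM in the 4N+ lines and at most 4.33 FPKM elsewhere, while the marker sum is highest in the PF 4N+ line (258 FPKM) and the KO ESC (219 FPKM).

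Y-linked genes differed in the TTF pair, with Eif2s3y at 25.3 FPKM (4N-) against 2.46 FPKM (4N+). In the PF pair the same gene was at 0.115 FPKM (4N-) and 0.0577 FPKM (4N+). The part of Y-linked genes in the result was not tested. Pluripotency markers summed to 2786 FPKM (4N-) and 2850 FPKM (4N+) in the PF pair, and to 3110 FPKM (4N-) and 3213 FPKM (4N+) in the TTF pair, with 0 of 17 measured past 2-fold in either.

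Genes with a pattern like that of Meg3 were sought outside the region among those reduced 2-fold or more in the 4N- lines of both pairs and under 1 FPKM in both ESC libraries. The 4 found are all small RNA genes on other chromosomes: Mir700 on chromosome 4 (r = 0.985 with Meg3 over the 6 libraries), Mir709 on chromosome 8 (r = 0.982), Snord123 on chromosome 15 (r = 0.974) and Mir466i on chromosome 13 (r = 0.742). Mir700 was listed at 0 in both 4N- lines, and at 39.4 FPKM (PF) and 29.6 FPKM (TTF) in the 4N+ lines. The r values were computed from the same libraries by which these genes were selected, so high values were largely fixed in advance. The 6 points share library depth, and features this short reach such FPKM values from few fragments.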

How the data were processed

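RNA was measured in 6 libraries, 1 per culture. Reads passed through CASAVA and TopHat2 on mm9, per the submitters' processing notes; of the quantifier, the annotation and all versions the sources used here say nothing. The values, never negative and not whole, were treated as FPKM as deposited by the authors; p-values and q-values are the authors' deposited ones and are quoted only as such, and the deposited log2 fold change (4N+ over 4N- in its direction) was not used. Coordinates are mm9, from the tables, counted from 1.

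Ratios were formed within a table on log2(FPKM + 1), which understates the change of low genes. A gene was measured at 1 FPKM or more in at least 1 library compared. With 1 library per condition there is no test, and genes past 2-fold were counted. For both iPSC pairs together, a limma model (version 3.58.1, R 4.3.3) used trend, parental cells as block and an adjusted p below 0.05. The labels do not say whether lines of a pair share an animal. The p-values concern these lines only, and the spread behind them is largely borrowed from other genes. Libraries of the same parental cell type deviated together from the means of their labels (r = 0.687 over 10533 genes). They also share a deposited table, and with 2 pairs this does not establish pairing.

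Effective depth came from 1184 intronless receptor genes with a shared length correction of 187 bp. In each library all tested values (31 to 118) were whole numbers within a tolerance of 0.05. The depth and the correction were fitted to these same values, so this is no independent check. Of them, 20 to 74 stand for 1 fragment. The 9 members, all gene lists and the rule for named genes (members, genes of the region past 2-fold, list members past 2-fold, genes like Meg3) were chosen with earlier results of these data known. Neighbours and promoter windows were added as description. Alternatives were another pseudocount, other filters, centring, no block, no trend, no small RNA genes and leaving out a library.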

Additional observations from a re-analysis of the deposited data

Results flagged for a closer look

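Wdr25 had log2 ratios of 4N- over 4N+ of opposite sign in the iPSC pairs, 0.21 in the PF pair and -0.09 in the TTF pair. The difference of 0.30 on the log2(FPKM + 1) scale was not tested, as each pair holds 1 line per label.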

How the results depend on the processing

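Meg3, Rian and Mirg kept their lower level in the 4N- lines under all 11 alternatives of the fit, but not their call. Their log2 ratios ran from -5.69 to -3.84 (Meg3), -5.82 to -3.89 (Rian) and -4.91 to -2.68 (Mirg), and adjusted p stayed below 0.05 in 7, 7 and 6 alternatives. Without small RNA genes the limma adjusted p was 4.5e-155 (Meg3), 9.2e-163 (Rian) and 9.2e-68 (Mirg). From 2 pairs, values this small rest on spread borrowed from other genes and overstate the evidence. The number of members called lower (3) was 0 with no filter and 0 with no replicate block. With 1 library left out (and no block) it ran from 0 to 3, with 0 without the PF 4N+ or the TTF 4N+ line; Mirg also lost its call without the PF 4N- line (adjusted p = 0.0969). Adjusted p over the left-out libraries ran from 0.0136 to 0.307 (Meg3), 0.0129 to 0.522 (Rian) and 0.0392 to 0.405 (Mirg). The lone library of a label is then assumed to vary like the other label, and values are compared across tables. Over all genes, 9 lower and 5 higher became 0 and 0 with no filter, 40 and 27 at a minimum of 5 FPKM, 3 and 0 with no replicate block, and 64 and 39 without small RNA genes; the higher count was 2 after centring and 3 without trend. Leaving out a library gave 6 to 17 lower and 0 to 11 higher genes. In ESC the count of members 2-fold higher, 1, was 0 at a minimum of 5 FPKM, as Dio3 is then not measured. No direction of a called member reversed. Causes were not tested. Depth limits all statements on Dlk1, Rtl1 and the ESC levels of the noncoding RNAs.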
